A study of Mus musculus with 3 samples.

Results

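The genes described here encode the enzymes and transporters of glycolysis and of the pentose phosphate pathway, together with the kinases that steer sugar carbon into or away from these routes. They comprised 36 genes, taken by their gene names from a table of 43472 genes of which 20322 had reads. RNA-seq was performed on wounded primary fibroblasts from the tail tip of C57BL/6 mice, grown as a monolayer and scratched, that had received the soluble micrograft (MG) together with PD0325901 for 5 h. The MG is an extract of disrupted mouse skin that was filtered, cleared of cells and diluted 1:10 in growth medium. PD0325901 inhibits the kinase MEK, which acts upstream of ERK. The 3 libraries are biological replicates 1, 2 and 3 of this 1 condition, all wounded and all carrying both agents. Untreated and MG-only cells were not analysed here, so the values describe levels, isozymes and replicate error, and no effect of MG or PD0325901 was computed. The labels give neither the age nor the sex of the mice.

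Glycolysis breaks glucose down to pyruvate and yields ATP and NADH, and lactate dehydrogenase turns pyruvate into lactate, which regenerates NAD+. The pentose phosphate pathway branches off at glucose 6-phosphate, where its oxidative arm makes NADPH and its non-oxidative arm makes ribose 5-phosphate and returns carbon to glycolysis. Many of these steps have several isozymes that differ by tissue, and fibroblasts in culture are known for a high rate of glycolysis.

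Levels are given as normalized counts, which the authors obtained by dividing the reads on a gene by the size factor of its library. The libraries held 17244505 to 27037783 reads on genes, and 1 read was worth 0.705 to 1.19 normalized counts. The reads carried no molecular identifiers, so statements on counting error cover counting alone. The label as fibroblasts was checked against marker genes, and 10 of 10 fibroblast markers were detected, which here means 10 or more normalized counts in each library. The sums of these markers, carried mostly by Col1a1, Fn1, Vim and Col1a2, were 483446, 505254 and 745513 normalized counts in replicates 1, 2 and 3. In 3 of the 10 a replicate lay more than 2-fold from both others, which were the surface marker Thy1 (2031, 15760 and 1652) and the matrix proteoglycans Lum (5073, 289 and 1164) and Dcn (3661, 1723 and 3659). Replicate 2 was thus high for Thy1 and low for Lum and Dcn, as it also stood out in members described here, and its part in those values was not tested. Markers of keratinocytes summed to 34.4 to 81.6, those of leukocytes to 26.9 to 90.1 and those of endothelial cells to 5.93 to 190, of which Tek in replicate 2 gave 185, and the erythroid markers were at 0. Krt10 was the detected keratinocyte marker, at 80.8, 39.5 and 32.0. As bulk RNA was sequenced, fewer cells of a type and less RNA per cell cannot be told apart. Replicate 2 stood apart from the others most often, as it was more than 2-fold from both other libraries for 10.1% of 13154 genes with a mean of at least 10, against 4.26% for replicate 1 and 3.58% for replicate 3.

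All 36 genes were detected, and 32 reached 100 normalized counts in each library. The exceptions were Aldoc, Eno2, Pfkfb1 and Pfkfb2. Reads per gene and library ran from 30 for Pfkfb1 in replicate 3 to 108662 for Pkm in replicate 2. Together the 36 genes took 1.41%, 1.62% and 1.79% of all normalized counts in the libraries of replicates 1, 2 and 3, on average 1.61% ± 0.192 (SD, n = 3).

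**Figure D1:**
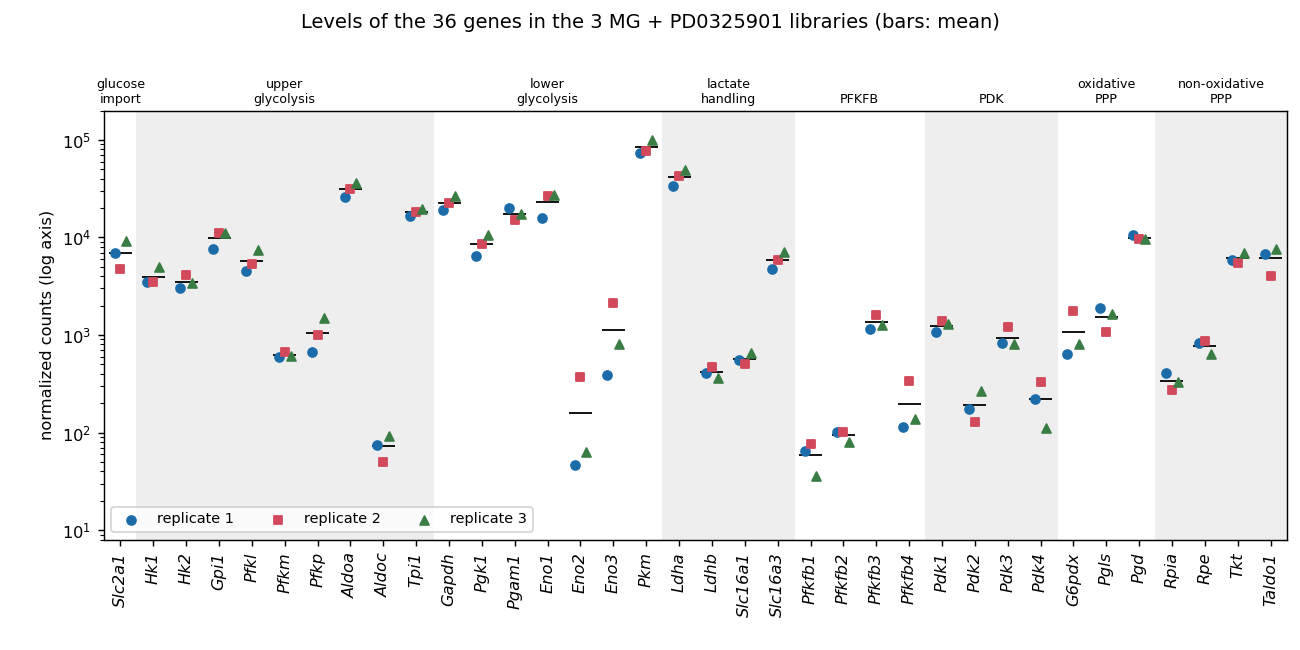
Normalized counts (log axis) of the 36 genes, ordered and shaded by role (PPP, pentose phosphate pathway), in replicates 1, 2 and 3 of the MG + PD0325901 condition, with a bar at the mean of the 3 libraries. Pkm lies highest at 74102 to 100827, and Eno2, Eno3, Pfkfb4 and G6pdx show replicate 2 well above the other points.

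Between replicates, the 36 genes varied about as much as all detected genes together. Those genes were not matched to the 36 in level, and genes with few reads carry more counting error. On the log2(normalized count + 1) scale, the 36 genes had a median SD of 0.29, and the genes detected in all libraries one of 0.30. The highest library was more than 2-fold above the lowest for 8 of 36 genes, or 22.2%, against 21.6% of 12204 detected genes, a share near the background. At more than 1.5-fold the count was 17, or 47.2%, against 48.5%. A replicate was more than 2-fold from both others for 4 genes, or 11.1%, against 15.8% of 13154 genes. These were Eno2, Eno3, G6pdx and Pfkfb4, and in each of them replicate 2 was the high library, a pattern that 5.2% of the 13154 genes showed. In Eno3 replicate 1 also lay more than 2-fold below both others, as it did in 1.97% of all genes. No member was more than 2-fold above both others in replicate 1 (2.29% of all genes) or in replicate 3 (1.28%), and 0 were below both in replicate 2 (4.87%) or in replicate 3 (2.3%). The gene next to this limit was Pdk4, whose replicate 3 was 1.98-fold under replicate 1.

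Along the pathways replicate 1 was most often the lowest library and replicate 3 most often the highest. Over the 36 genes, replicate 1 was lowest in 20 (34.5% of all detected genes), replicate 2 in 9 (37.3%) and replicate 3 in 7 (28.3%). Replicate 3 was highest in 17 (27.9% of all detected genes), replicate 2 in 15 (40.6%) and replicate 1 in 4 (31.5%), which were Pgam1, Pgd, Pgls and Rpia. For the 18 enzymes from hexokinase to lactate dehydrogenase, replicate 1 was the lowest library in 15. The exceptions were Aldoc, Pgam1 and Ldhb. In Hk1, Pfkm and Eno2, which are among the 15, replicate 1 was within counting error of the next lowest library. Their adjusted p was 0.715, 0.749 and 0.236 by the exact binomial test described below. The median log2 ratio of a replicate to the mean of the other libraries was -0.36, 0.05 and 0.35 over these 18 enzymes in replicates 1, 2 and 3, and -0.03, 0.03 and 0.00 over all detected genes. With the libraries scaled to equal totals the count was 14 and with TMM factors 15. Leaving out replicate 2, replicate 1 was below replicate 3 in 16 of the 18 enzymes (50.3% of all detected genes), and leaving out replicate 3 it was below replicate 2 in 16 (52.6%). The fibroblast markers summed to the least in replicate 1 and to the most in replicate 3 as well, and their part in the glycolytic order was not tested. The 7 pentose phosphate enzymes had medians of 0.16, -0.21 and -0.00, and replicate 2 was lowest in 4 of them.

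**Figure D2:**
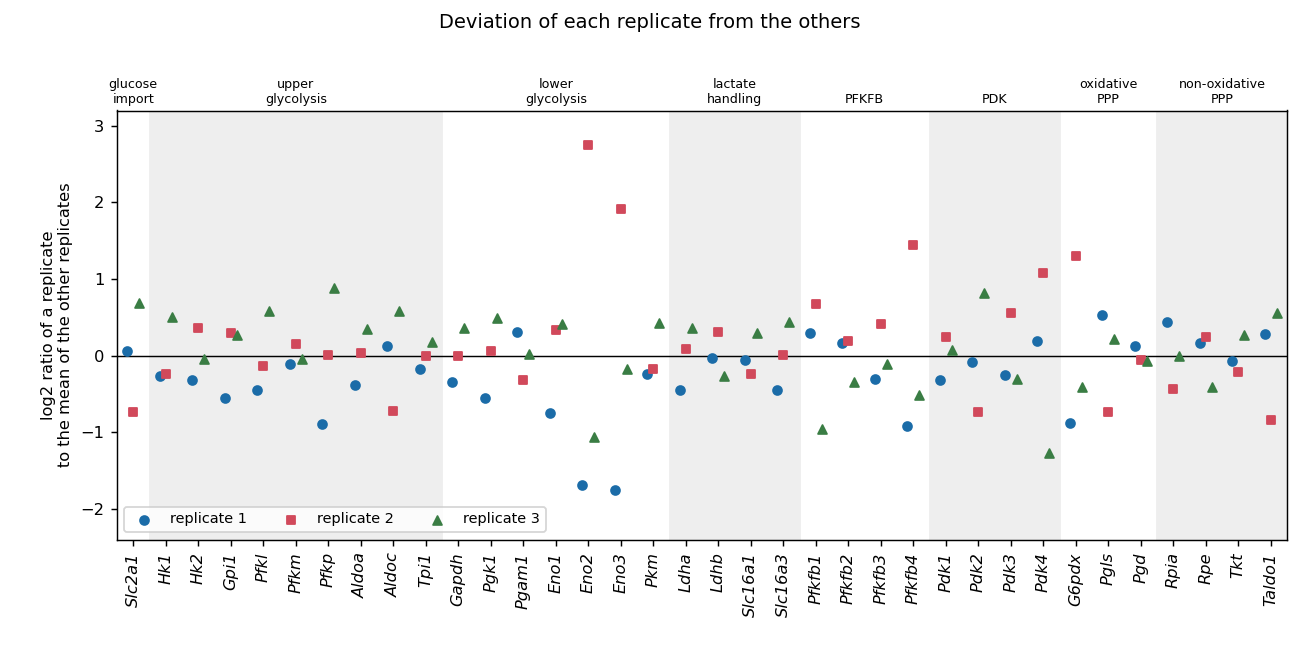
Log2 ratio of each replicate to the mean of the other replicates for the 36 genes, ordered and shaded by role. The circles of replicate 1 lie below 0 for most glycolytic enzymes, and the squares of replicate 2 reach 2.75 for Eno2, 1.92 for Eno3, 1.44 for Pfkfb4 and 1.30 for G6pdx.

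Pairs of libraries were also compared by a two-sided exact binomial test on the recovered reads, which covers counting error alone and compares libraries, not conditions. With Benjamini-Hochberg adjustment over all genes tested, replicates 1 and 2 differed at an adjusted p under 0.05 in 31 of 36 genes, against 68.4% of all genes tested. Replicates 1 and 3 differed in 28 (51.1% of all genes), and replicates 2 and 3 in 31 (62% of all genes). Replicate 1 exceeded replicate 2 in 9 genes (32.7% of all genes tested) and fell short of it in 22 (35.7%). Replicate 1 exceeded replicate 3 in 7 genes (25.1%) and fell short of it in 21 (26.1%). Replicate 2 exceeded replicate 3 in 11 genes (32%) and fell short of it in 20 (30%). Of the 36 genes, 21 differed in all 3 pairs, and Pfkfb2 in none. At the depth of these libraries most differences between biological replicates exceeded counting error, for these genes as for others. Only 4, 2 and 7 of the 36 genes also differed by more than 2-fold in the pairs 1 and 2, 1 and 3, and 2 and 3, against 19.9%, 8.78% and 16.1% of all genes tested.

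Glucose import was represented by Slc2a1, which encodes the glucose transporter GLUT1. It had 6915, 4775 and 9221 normalized counts in the libraries of replicates 1, 2 and 3, on average 6970 ± 2224 (SD, n = 3). Replicate 2 was the low library and replicate 3 the high one, 1.93-fold apart. Slc2a1 was thus lowest in another replicate than most of the enzymes that act on the imported sugar. The gene lies on chr4:119108711-119137983 (GRCm38, plus strand).

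In upper glycolysis, which runs from glucose to the triose phosphates, replicate 1 was lowest in 8 of 9 genes. The hexokinases phosphorylate glucose and so trap it in the cell. Hk1 was at 3472, 3505 and 4941 normalized counts, with replicates 1 and 2 not separated beyond counting error (adjusted p = 0.715, exact binomial test) and replicate 3 above both. Hk2, the isozyme known to respond to insulin and hypoxia, was at 3005, 4129 and 3418, and here replicate 2 was the high library. Gpi1, which converts glucose 6-phosphate to fructose 6-phosphate, was at 7545, 11169 and 11053, with replicate 1 alone low. Phosphofructokinase commits the sugar to glycolysis and is its main control step. Its liver-type isozyme Pfkl had the most counts, at 4563, 5294 and 7344. The muscle type Pfkm was the steadiest of the enzymes of upper glycolysis, at 591, 668 and 608, and differed only between replicates 1 and 2 (adjusted p = 0.0248, exact binomial test). The platelet type Pfkp was at 663, 1005 and 1502, a 2.27-fold range in the same order of replicates as Pfkl. Aldolase splits fructose 1,6-bisphosphate into triose phosphates. Aldoa had 25833, 31254 and 36024 normalized counts and Aldoc 74.7, 50.03 and 92.5, with replicate 1 lowest for the former and replicate 2 for the latter. Tpi1, which interconverts the triose phosphates, was at 16769, 18065 and 19731, a range of only 1.18-fold.

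Lower glycolysis, from glyceraldehyde 3-phosphate to pyruvate, held the highest counts, and replicate 1 was lowest in 6 of its 7 genes. Gapdh, which oxidises glyceraldehyde 3-phosphate and is often used as a reference gene, was at 19026, 22277 and 26377, a 1.39-fold range between replicates of 1 condition. Pgk1, the first ATP-forming enzyme, was at 6513, 8635 and 10507. For both, replicate 1 was the low library and replicate 3 the high one. Pgam1, which moves the phosphate within phosphoglycerate, ran the other way, at 20019, 14995 and 17566 with replicate 1 highest. Pkm, which encodes muscle-type pyruvate kinase and makes the second ATP and pyruvate, was at 74102, 76564 and 100827, and replicate 3 was the high library. The splice forms of Pkm cannot be told apart in counts per gene.

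The enolases, which form phosphoenolpyruvate, held the pair of genes with the widest ranges of the 36, Eno2 at 7.89-fold and Eno3 at 5.47-fold. Eno1, the form found in most tissues, was at 15967, 26421 and 27326 normalized counts, with replicate 1 low. Eno3, the muscle form, was at 391, 2136 and 813, and replicate 2 was 2.63-fold above the next library. Eno2, the neuronal form, was at 46.9, 370 and 62.8, with replicate 2 5.89-fold above the next library while replicates 1 and 3 were not separated beyond counting error (adjusted p = 0.236, exact binomial test). Replicate 2 was thus high for both tissue-restricted enolases, and for Eno1 it lay close to replicate 3. Without replicate 2 the mean of Eno2 fell from 160 to 54.9 normalized counts and that of Eno3 from 1113 to 602.

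Markers of the tissues that these forms are named for were mixed. The 7 skeletal muscle markers summed to 2661, 8505 and 5683 normalized counts, nearly all of it Acta1 and Des, and 3 of 7 were detected in every library. Acta1, skeletal muscle actin, was at 2429, 7286 and 5586, and Des, the muscle intermediate filament desmin, at 212, 1208 and 77.0. Mylpf, a fast muscle myosin light chain, went the other way, at 20.0, 10.6 and 15.4 with replicate 2 lowest. Myod1, which defines muscle precursor cells, was at 0, and muscle creatine kinase Ckm and the myosins Myh1 and Myh4 did not exceed 2.37. The 6 neural markers summed to 490, 1230 and 731, nearly all of it Tubb3, a neuronal tubulin, at 485, 1222 and 725, and the synaptic gene Snap25 was at 0. The part of muscle or neural cells in the enolase values was not tested beyond these levels.

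Whether reads of 1 enolase could be counted for another was examined in the coding sequences, which are all 1302 bases long. The coding bases of Eno1 were 78.7% identical to those of Eno3 and 76.9% to those of Eno2. Each of the 1253 windows of 50 bases, the read length, differed between Eno1 and Eno3 and between Eno1 and Eno2 by at least 4 bases, with a median of 11. Eno2 and Eno3 had 1 window with 2 differences and a median of 11. By contrast, Eno1b, a copy of Eno1 elsewhere in the genome, shares long identical stretches with Eno1. The first 50 coding bases are printed to show this, with capitals for bases that differ from Eno1. For Eno1 they lie in the first coding exon at chr4:150239482-150239531 (GRCm38, plus strand), all sequences being read from the GENCODE M21 transcripts.
Eno1: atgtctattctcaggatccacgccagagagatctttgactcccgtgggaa
Eno1b: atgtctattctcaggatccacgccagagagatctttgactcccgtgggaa
Eno2: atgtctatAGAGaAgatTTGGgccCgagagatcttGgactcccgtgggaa
Eno3: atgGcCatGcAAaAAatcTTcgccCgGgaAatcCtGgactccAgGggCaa
In this window Eno2 differed from Eno1 at 11 bases and Eno3 at 17, whereas Eno1b did not differ. The Eno1b row held 7.82, 0 and 1.19 normalized counts, without reads from the identical stretches, as the authors kept uniquely aligned reads.

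In lactate handling, the genes with the most counts followed the glycolytic order. In the others the lowest library was not separated from replicate 1. Ldha, the subunit that favours lactate formation, was at 33514, 42800 and 48796 normalized counts, lowest in replicate 1 and highest in replicate 3. Ldhb, the subunit that prevails in heart, was at 403, 473 and 362. Replicate 3 was lowest, but within counting error of replicate 1 (adjusted p = 0.229, exact binomial test). Lactate leaves the cell through monocarboxylate transporters. Slc16a3, which encodes the exporter MCT4, was at 4749, 5866 and 7153 with replicate 1 lowest. Slc16a1, which encodes MCT1, was at 553, 507 and 648, with replicate 3 highest. Its replicate 2 was lowest, but within counting error of replicate 1 (adjusted p = 0.150, exact binomial test).

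The 4 PFKFB enzymes make and degrade fructose 2,6-bisphosphate, the main activator of phosphofructokinase, and replicate 2 was highest in 4 of 4. Pfkfb3, the form with the strongest kinase activity, was at 1157, 1609 and 1267. Pfkfb4 was at 113, 338 and 136, with replicate 2 2.48-fold above the next library and replicates 1 and 3 not separated beyond counting error (adjusted p = 0.240, exact binomial test). Its mean was 196, and 125 without replicate 2. Pfkfb2, the heart form, was at 101, 102 and 79.4, and Pfkfb1, the liver form, at 64.3, 76.8 and 35.6. For Pfkfb2 the lead of replicate 2 over replicate 1 was within counting error (adjusted p = 0.985, exact binomial test), and so was that for Pfkfb1 (adjusted p = 0.325, exact binomial test).

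The 4 pyruvate dehydrogenase kinases hold pyruvate back from the mitochondrial pyruvate dehydrogenase complex, and replicate 2 was highest in 3 of 4. Pdk1, a known HIF-1 target, was at 1067, 1378 and 1280 normalized counts. Pdk3 was at 825, 1198 and 801, with replicates 1 and 3 not separated (adjusted p = 0.683, exact binomial test). Pdk4, known to be induced by fasting, was at 218, 328 and 110, a 2.98-fold range in which the libraries all differed by the exact binomial test. Pdk2 was at 175, 129 and 266, the reverse order of Pdk4.

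In the oxidative arm of the pentose phosphate pathway, the enzymes that make NADPH did not move together between replicates. G6pdx, whose enzyme controls entry into the pathway, was at 643, 1766 and 800 normalized counts. Replicate 2 was 2.21-fold above the next library, and replicates 1 and 3 differed by far less (log2 ratio of -0.31, adjusted p = 0.000166, exact binomial test). Pgls, which hydrolyses the lactone, was at 1908, 1062 and 1653, with replicate 2 lowest. Pgd, which makes the second NADPH and ribulose 5-phosphate, was at 10558, 9712 and 9656, a 1.09-fold range and the narrowest of the 36 genes. The G6pdx row should be read with care, as 13.6% of its exonic bases overlap Ikbkg on the opposite strand, and the strand setting of the counting was not given in the sources used here. The intronless copy G6pd2 was at 0 in every library.

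In the non-oxidative arm, replicate 2 was lowest in 3 of 4 genes. Taldo1, transaldolase, was at 6700, 3978 and 7592 normalized counts, with replicate 2 1.68-fold below the next library. Tkt, transketolase, was steadier at 5892, 5520 and 6903, and its lowest library was also replicate 2. Rpia, which makes ribose 5-phosphate, was at 406, 271 and 331, and Rpe, the epimerase that makes xylulose 5-phosphate, at 830, 864 and 640. Thus replicate 2 held the most G6pdx and the least Taldo1, Tkt and Rpia.

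Levels of different genes were compared per kb of exonic length (all exons of the gene merged, GENCODE M21). On this scale Pkm led with 16763 ± 2954 normalized counts per kb (SD, n = 3), followed by Ldha with 12599 ± 2326, Aldoa with 10662 ± 1752, Pgam1 with 8843 ± 1267, Tpi1 with 6607 ± 539, Gapdh with 5459 ± 891, Eno1 with 4320 ± 1174 and Pgk1 with 3811 ± 891. Taldo1 at 2805 ± 867 was the first enzyme of the pentose phosphate pathway, ahead of Slc2a1 at 1988 ± 634. At the bottom stood Aldoc at 22.2 ± 6.53, Pfkfb1 at 14.7 ± 5.26 and Pfkfb2 at 12.97 ± 1.76. Of the 35 neighbouring pairs in this order only 4 were separated, in that the lowest library of one lay above the highest library of the next, which were Pkm over Ldha, Pgam1 over Tpi1, Rpe over Pfkm and Slc16a1 over Pfkp. The other 31 neighbours overlapped between libraries.

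Summed per kb by role, lower glycolysis stood at 39870 ± 5185 normalized counts per kb (SD, n = 3), upper glycolysis at 21008 ± 2931 and lactate handling at 14104 ± 2550. The non-oxidative arm of the pentose phosphate pathway stood at 3948 ± 929 and its oxidative arm at 2303 ± 93.0. The oxidative sum was the steadiest, at 2353, 2361 and 2196 in replicates 1, 2 and 3, as Pgd held most of it while G6pdx and Pgls moved in opposite directions. The regulatory kinases were far lower, with 649 ± 113 for the PDK genes and 246 ± 60.6 for the PFKFB genes.

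In most families 1 isozyme held most of the counts per kb. Aldoa held 99.8% ± 0.0596 of aldolase (SD, n = 3), Ldha 97.9% ± 0.493 of lactate dehydrogenase and Slc16a3 89.5% ± 1.55 of the 2 monocarboxylate transporters. Pfkl held 76.1% ± 2.48 of phosphofructokinase, followed by Pfkm at 17.1% ± 3.50 and Pfkp at 6.83% ± 1.31. With the longest transcript Pfkm also led Pfkp, at 11.9% ± 2.56 against 6.33% ± 1.16. Per windows that match no other gene Pfkp came ahead, at 12.3% ± 2.11 against 11.1% ± 2.49 for Pfkm. No window of either gene matched elsewhere, so this change did not come from shared sequence. The windows of Pfkp were taken from a protein-coding transcript of 4145 bases, while its longest transcript has 8681. The order of Pfkm and Pfkp thus depended on the length used. Pfkfb3 held 73.2% ± 5.26 of the PFKFB counts per kb and Pfkfb4 15.4% ± 5.78, the latter at 11.2%, 22.00% and 12.98% in replicates 1, 2 and 3. Among the PDK genes the lead was less clear, with Pdk3 at 56.2% ± 3.64, Pdk1 at 24.8% ± 2.65, Pdk2 at 9.65% ± 4.46 and Pdk4 at 9.36% ± 3.57, where the last pair overlapped between libraries.

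Per exonic kb, the share of the leading isozyme varied most in enolase among the 8 families, with an SD of 7.55 percentage points for Eno1. With the longest transcript this SD was 3.90 and with windows that match no other gene 0.654, and hexokinase then varied most, with an SD of 6.45 for Hk1. Eno1 held 92.7%, 79.0% and 91.4% in replicates 1, 2 and 3, and Eno3 7.02%, 19.7% and 8.41%. Eno2 held 0.311%, 1.26% and 0.240%, a mean of 0.605% that was 0.276% without replicate 2, and without it the mean of Eno3 fell from 11.7% to 7.71%. With the longest transcript and all 3 replicates, the mean of Eno3 was 5.39% and that of Eno2 0.426%, from the change of length alone. With levels taken per 1000 windows of 50 bases that match no other gene, they were 0.855% and 0.0679%. This further fall arose because few windows of Eno1 are free of matches. The hexokinases were near parity, and their order depended on the length used. Hk2 held 55.9% ± 6.53 per exonic kb, but Hk1 held 59.0% ± 6.45 when the longest transcript was used and 59.1% ± 6.45 per windows without a match. Which hexokinase leads can therefore not be told from these counts.

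**Figure D3:**
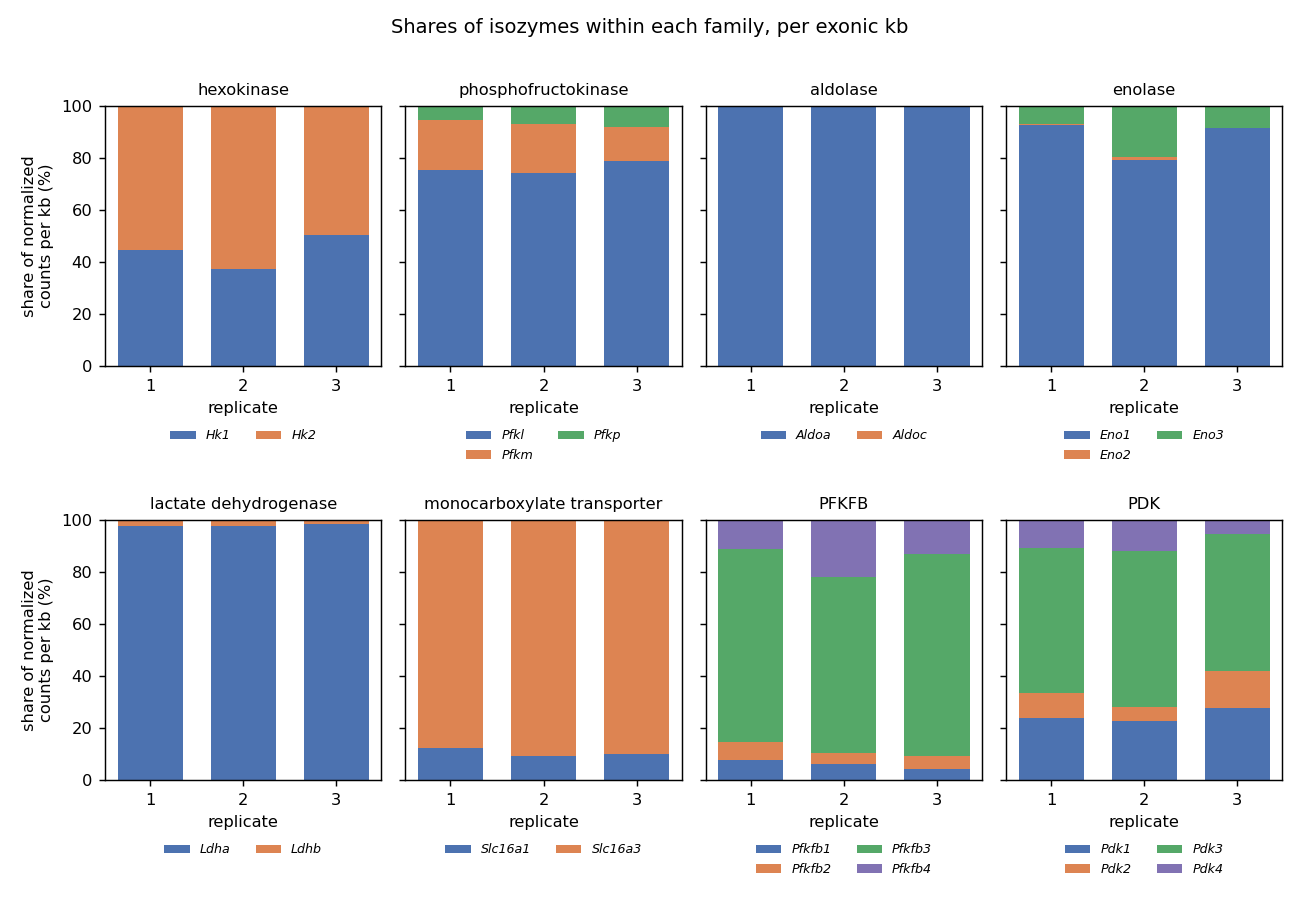
Share (%) of each isozyme in the normalized counts per exonic kb of its family, as stacked bars for replicates 1, 2 and 3. A single gene holds most of aldolase, lactate dehydrogenase and the transporters in every replicate, the hexokinases share theirs, and the Eno3 share reaches 19.7% in replicate 2.

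The counts of the abundant enzymes also depend on their copies elsewhere in the genome, since the authors kept uniquely aligned reads. In each gene's longest protein-coding transcript, windows of 50 bases were searched in the transcripts of genes elsewhere with up to 2 mismatches, the number the authors allowed. This transcript can be shorter than the longest transcript of any type, as for Pgls with 1062 against 2688 bases. More than 25% of the windows matched for 12 of the 36 genes, 10 of them glycolytic enzymes, while 24 genes had under 3% and 16 of these had none. Eno1 reached 85.3%, Gapdh 84.2%, Pgk1 68.0%, Ldhb 66.7%, Pkm 64.3% and Aldoa 57.3%. For Gapdh the matches fell in 333 genes, of which 321 are annotated as pseudogenes. With identical matches only, the shares were 72.2% for Eno1, 82.1% for Gapdh, 68.0% for Pgk1, 30.5% for Pkm and 13.5% for Aldoa. The rows were looked up for some of the leading copies alone. Among these, the Gapdh pseudogene Gm3839 was at 255, 97.9 and 135 normalized counts, and the copies Gm7336 of Gapdh, Pgk1-rs7 of Pgk1 and Gm5514 of Ldhb were at 0. As reads from identical stretches do not align uniquely, a row at 0 does not show that a copy is not transcribed.

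Per 1000 windows without a match, the order at the top changed to Gapdh, Pkm, Eno1, Aldoa and Ldha, and Gapdh moved from rank 6 to rank 1. The true order of Gapdh, Pkm, Eno1, Aldoa and Ldha is thus uncertain, whereas these 5 genes were among the 7 highest by either measure. The differences between replicates of a gene do not depend on its length or on its number of such windows. Overlapping genes add a further uncertainty for Pgls (20.6% of exonic bases shared with Fam129c on the same strand), Pfkfb2 (19.5%), Rpe (17.9%, Kansl1l on the opposite strand) and Pkm (15.3%).

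**Figure D4:**
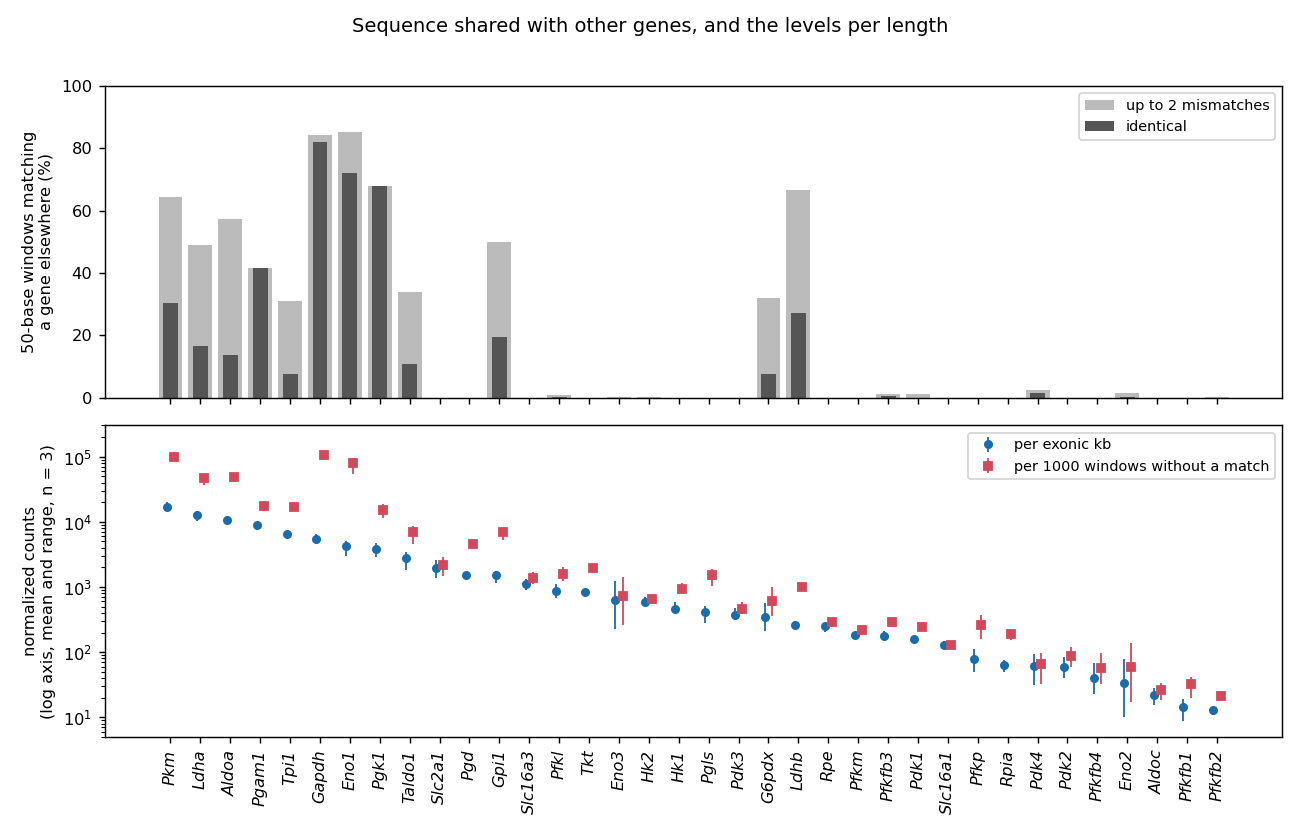
Top, share (%) of the 50-base windows of each gene that match a gene elsewhere, with up to 2 mismatches or identically. Bottom, normalized counts (log axis) per exonic kb and per 1000 windows without a match, with the mean and the range of the 3 libraries. Genes are ordered by the level per exonic kb, and the largest gaps between both measures lie at Gapdh and Eno1, where matches reach 84.2% and 85.3%.

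Other genes of the pathways were taken from lists. Of 39 further enzymes, transporters and pyruvate dehydrogenase subunits, 38 had a row, 23 were detected in every library and 8 were at 0. Among those at 0 were the liver pyruvate kinase Pklr, the testis forms Gapdhs, Pgk2 and Ldhc, and the gluconeogenic Fbp1. The highest means belonged to Pdha1, a pyruvate dehydrogenase subunit, with 5573 normalized counts, H6pd, an NADPH-forming enzyme of the endoplasmic reticulum, with 2547, and Dld, a further subunit, with 2088. A replicate was more than 2-fold from both others in 5 of the 23, against 15.8% of 13154 genes, replicate 2 in each case (10.1%). Pdp2, a pyruvate dehydrogenase phosphatase, was at 18.2, 72.6 and 29.6, and Shpk, sedoheptulokinase, at 91.2, 291 and 99.6, both high in replicate 2. Pgam2, the muscle phosphoglycerate mutase, was at 101, 10.6 and 115, Ldhd, D-lactate dehydrogenase, at 85.1, 15.5 and 81.8, and the transporter Slc16a7 at 72.9, 24.7 and 59.3, all low in replicate 2. Pgam2 thus ran opposite to Eno3, although both are the muscle forms of neighbouring steps.

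Of 17 regulators of the pathways 16 were detected, and 0 of these had a replicate more than 2-fold from both others (15.8% of all genes). The highest were Bsg, the chaperone of the monocarboxylate transporters, with a mean of 22407 normalized counts, Hnrnpa2b1, a splicing factor of Pkm, with 13160, and Hif1a, the oxygen-sensing transcription factor, with 10815. Hif1a was at 8533, 12221 and 11690, lowest in replicate 1. Among the 16 detected regulators, however, replicate 1 was lowest in only 3 and replicate 2 in 10. Their median log2 ratios were 0.07, -0.15 and 0.13 in replicates 1, 2 and 3. Of 16 hypoxia-responsive genes outside the pathways 15 had a row, and 15 were detected. Replicate 1 was lowest in 3 of the 15, and their median log2 ratios were 0.11, -0.16 and 0.25 in replicates 1, 2 and 3. The highest means were those of the collagen prolyl hydroxylases P4ha1 with 9455 and P4ha2 with 8692 normalized counts, and of the growth factor gene Vegfa with 5916. A replicate lay more than 2-fold from both others in 1 of the 15, Bhlhe40, at 2498, 1107 and 2501, against 15.8% of all genes.

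The promoters of the 36 genes were searched on both strands for short motifs in RefSeq windows of 300 bases, 250 before and 50 after the start (GRCm38.p6), where 56 windows matched the 36 genes. The core of the hypoxia response element (ACGTG) was found in 39.3% of these windows and in 19.6% of all 32851 windows, or in 18 of the 36 genes and 21.8% of all genes. The E-box CACGTG, which holds this core on both strands, was found in 10.7% of these windows against 7.15%, or in 16.7% of the 36 genes against 8.09% of all genes. The AP-1 site TGANTCA, bound by the factors that act downstream of ERK, was found in 1.79% of the windows, in Aldoa alone, against 7.81% of all windows. By genes this was 2.78% against 8.97%. The core of the antioxidant response element (TGACNNNGC) was found in 8.93% of the windows against 12.4%. By genes there was no such difference, with 5 of the 36 (13.9%), G6pdx and Pgd among them, against 14% of all genes. These matches describe letters in a window, and binding was not measured here. The 36 genes had more windows per gene (56 for 36) than all genes (32851 for 27025), which gives each gene more places for a match. The windows were not matched for base composition or for the expression of their genes.

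The 250 bases before the start are printed for a pair of glycolytic genes with hypoxia response cores, with the cores and E-boxes in capitals. Both windows hold no annotated exon. That of Ldha (chr7:46845554-46845803, plus strand) precedes a start site that RefSeq lists 4329 bases inside the GENCODE gene, and that of Pgk1 (chrX:106186850-106187099, plus strand) precedes the start of the gene itself.
Ldha: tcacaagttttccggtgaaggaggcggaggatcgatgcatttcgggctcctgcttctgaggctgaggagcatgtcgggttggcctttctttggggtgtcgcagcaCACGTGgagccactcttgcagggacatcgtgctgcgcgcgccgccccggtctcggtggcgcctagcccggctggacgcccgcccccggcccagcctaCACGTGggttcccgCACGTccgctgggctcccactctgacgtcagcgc
Pgk1: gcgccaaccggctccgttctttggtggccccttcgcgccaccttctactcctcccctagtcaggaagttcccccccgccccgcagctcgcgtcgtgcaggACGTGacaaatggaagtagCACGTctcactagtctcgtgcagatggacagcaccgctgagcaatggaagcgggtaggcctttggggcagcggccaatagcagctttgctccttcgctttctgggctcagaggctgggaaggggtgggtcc
The Ldha window held 2 E-boxes, each counted as a core on both strands, and 1 further core, and the Pgk1 window held 2 cores. The other Ldha window that RefSeq lists, further downstream, held none of these motifs. Ldha and Pgk1 shared the order of replicates given earlier, with 33514 and 6513 normalized counts in replicate 1 and 48796 and 10507 in replicate 3. Aldoa, Gapdh, Hk1, Pkm and Slc16a3, which also had cores, showed this order too. So did Eno1, Tpi1, Pfkl and Pfkp, which had no core in any window. Other genes with cores, such as Slc2a1, Hk2 and Pgam1, had other orders. A link between cores and the order of replicates was not tested.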

How the data were processed

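RNA-seq was analysed from 3 libraries, biological replicates of 1 condition, so no test between conditions was made. Whether separate animals were used is not given in the sources used here. The p-values cover counting error between 2 libraries and not the spread between replicates. The authors aligned single-end 50-base reads to mm10 with TopHat2 2.0.13, kept unique alignments, used SAMtools 0.1.19.24, counted reads per gene with HTSeq 0.5.3p3 and normalised with DESeq (tools and versions from the submitters' processing notes). The deposited signal consists of reads per gene divided by a size factor (normalized counts), and 100% of values were whole multiples, within 0.05 reads, of the value of 1 read. Reads recovered by division summed to 22540518, 27037783 and 17244505, with size factors of 1.15, 1.42 and 0.844. The gene annotation and strand setting were not given in the sources used here. The table has 3 more per-sample columns, which match no label and were left out.

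Detection required 10 normalized counts in every library, and log2 values used a pseudocount of 1. The pairwise exact binomial tests were run on genes with 10 or more reads in a pair. Windows were searched with BLAST+ 2.17.0. TMM factors came from edgeR 4.0.16 (R 4.3.3), and Python 3.11.15, numpy 2.4.6, scipy 1.17.1 and pandas 2.3.3 did the rest. The steps were tested on simulated data. All 36 genes are named by rule. The rule gives values in every library for isozymes, genes with a replicate apart and the leading genes of each role, and those of the other members were added. Of the pathway, regulator and hypoxia lists, the 3 highest genes and the detected ones with a replicate apart are named by rule, and the copies, the genes at 0 and the cell type markers named were chosen after their values were seen. The genes and lists were chosen with earlier results of these data known. Other scalings, pseudocounts, minimums, folds and lengths and each replicate left out were tried. The window lengths and the alternatives to the count of enzymes lowest in replicate 1 were added after seeing the data.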

Additional observations from a re-analysis of the deposited data

How the results depend on the processing

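No paired analysis was possible because the libraries belong to 1 condition. The count of genes with a replicate more than 2-fold from both others was 4 under every pseudocount and minimum tried and under TMM scaling, 5 with equal totals (Pdk4 added) and 11 at 1.5-fold. Asking for a difference over 2-fold as well lowered the pairwise calls from 31, 28 and 31 to 4, 2 and 7, by construction. The median SD of log2 values ranged from 0.252 without replicate 2 to 0.291 without replicate 3, with 0.264 without replicate 1. All 36 genes were detected at a minimum of 1 and 32 at 100. Mean levels moved by less than 1 SD for 36 of 36 genes with equal totals and with TMM factors. Both sets of factors lay close to the deposited ones, so a larger move was hardly possible. Without replicate 2 the means of Eno2, Eno3 and Pfkfb4 fell to 54.9, 602 and 125 normalized counts, and the Eno2 and Eno3 shares to 0.276% and 7.71%. The leading isozyme stayed the same in 7 of 8 families under each other length, hexokinase being the exception, and in 8 of 8 without any 1 replicate. Isozyme shares moved by more than the replicate SD for 11 of 22 genes with the longest transcript and for 12 of 22 per windows without a match, and ranks moved for 11 and 19 of 36. The median of replicate 3 over the pentose phosphate enzymes, -0.004, became 0.004 with TMM factors. Genes under 100 reads, such as Pfkfb1 with 30 in replicate 3, carry a counting error of up to 18.3%.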
